A study of Zea mays with 16 samples.

Results

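When a DNA transposon inserts, its transposase makes a staggered cut in the target, and repair of the overhangs leaves a few bases of host sequence on either side of the element, the target site duplication. The sites described here are the 143 maize *Mu* target site duplications, of 197 listed (72.6%), that had no near-identical duplication close by. An entry was dropped if another entry on the same chromosome or contig lay more than 20 bp and at most 20000 bp away and its 9-bp sequence differed at 0 or 1 base. Of the entries then left within 20 bp of each other, the first was kept. This removed 44 entries in 22 pairs and then a further 10 entries. All 4 entries on unplaced contigs were among those dropped, so all 143 sites are on the 10 chromosomes.

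The list was made from DNA of shoots of 8 seedlings at 6 days of age, each an F1 hybrid of the inbred lines B73 and Mo17. *Mu* elements were active only in the line used as the B73 parent, into which *Mutator* had been brought by introgression, and not in Mo17. The paper takes all new insertions to be in the B73 chromosomes on this ground. The list gives no parent or allele for a site, so this could not be checked here. DNA next to *Mu* elements was amplified and sequenced, and the list pools the 8 seedlings. It names no seedling and no number of reads, so the depth behind each site is unknown, no site can be called present or absent in a seedling, and there is no group of seedlings without *Mu* activity to set the sites against. Positions are those of the B73 RefGen_v4 assembly.

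*Mu* elements are DNA transposons of maize that move by cutting and pasting, and insert at sites unlinked to the donor. They are known for going into low-copy, gene-rich DNA, mostly at the 5′ ends of genes, which in maize lies mainly towards the ends of the chromosomes. The transposase acts on both DNA strands of the target, so a preference for a base near the left end of the duplication can also appear as a preference for the complementary base near the right end. For that reason position 1 on one strand was set beside position 9 on the other, 2 beside 8, 3 beside 7 and 4 beside 6.

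Counted over both strands at positions 1 to 4, thymine was the base whose share differed most between positions, with its highest share at position 2, and adenine at the mirrored position 8 seldom occurred in the same site as that thymine. The sequences below are the 8 sites that held both, with positions 2 and 8 in capitals (5′ to 3′ on the listed strand).
chr1:72909321-72909329: gTttagaAc
chr1:279578490-279578498: aTctctgAg
chr4:37784925-37784933: cTctggtAg
chr6:171023328-171023336: cTtgtgaAg
chr7:125209057-125209065: gTatttgAa
chr7:136905250-136905258: cTggtagAg
chr8:13623823-13623831: cTtattcAc
chr9:141351364-141351372: gTcgaccAg
Of these, the sites on chromosomes 4 and 6 and the second on chromosome 7 also began with C and ended with G, the most frequent bases at positions 1 and 9. The more usual form, with T at position 2 or A at position 8 but not both, is shown by the first 5 such sites along chromosome 1, again with positions 2 and 8 in capitals.
chr1:3294639-3294647: cGgagagAt
chr1:14079299-14079307: cTttccaGc
chr1:18185903-18185911: gGgcgctAt
chr1:42465948-42465956: aActctaAg
chr1:43999233-43999241: cTcgtctCg

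The sites lay towards the ends of the chromosomes. No chromosome length of the assembly was used, so each position was scaled between the first and the last entry of the whole list on that chromosome, and the entries that set these ends, 18 of them sites described here, were left out. Of the other 125 sites, 96 lay within 0.25 of the span from either end (76.8%, Clopper-Pearson 95% interval 68.4% to 83.9%) and are called outer, and 29 lay in the middle, where an even spread would put 50% in each. The outer part at the start held 46 sites and that at the end 50. The excess over all chromosomes was thus on both sides, and more than 50% of sites were outer on all 10 chromosomes. The lowest share was on chromosome 1 (61.9%, 13 of 21 sites) and the highest on chromosome 3 (92.3%, 12 of 13 sites). These shares by chromosome depend on the limit of 0.25. On chromosome 7, sites from 0.754 to 0.773 of the span counted as outer, and on chromosome 10 sites from 0.224 to 0.240 did. Shares by chromosome were not taken for narrower outer parts.

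**Figure D1:**
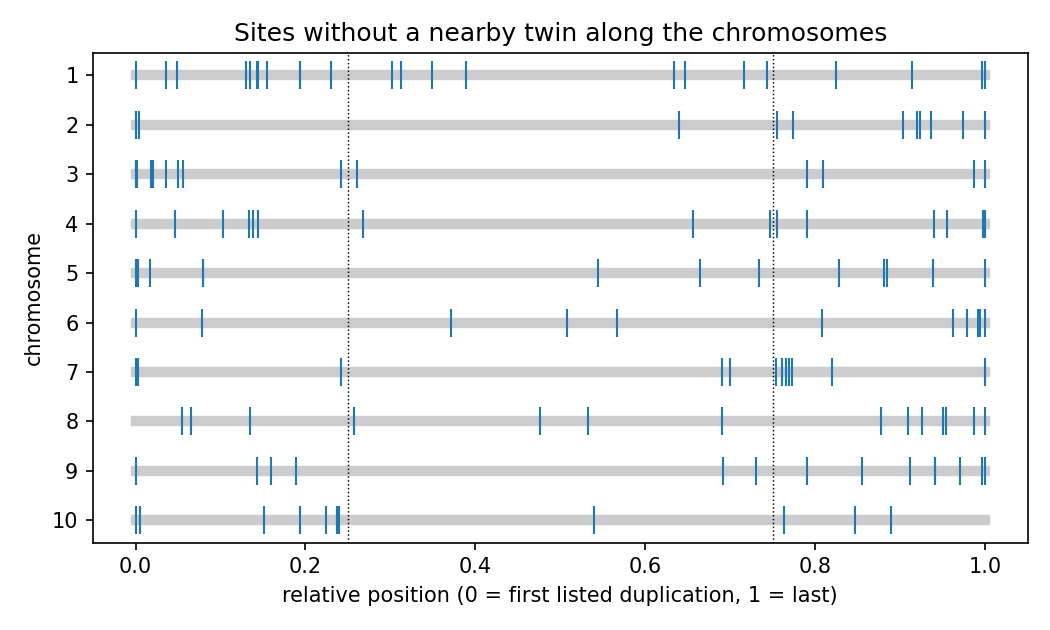
Each tick is a site, placed along its chromosome between the first (0) and the last (1) listed duplication, and dotted lines mark the limits of the outer parts. Taken over all chromosomes, sites gather at both ends. The widest stretches without a site, of 143 and 121 Mb, are on chromosomes 2 and 3 and held 6 and 2 dropped entries.

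The sites were also unevenly placed when the span was divided into 10 equal intervals. The outermost intervals held 22 and 27 sites, together 39.2% (Clopper-Pearson 95% interval 30.6% to 48.3%), and the central intervals held 1 and 5 sites, together 4.8% (1.78% to 10.2%). An even spread would give 12.5 sites per interval. Along the chromosome the intervals held 22, 17, 11, 5, 1, 5, 9, 17, 11 and 27 sites. Measured in bases, 21 sites began within 10 Mb of the start of a chromosome and 31 within 20 Mb. At the other side, 25 sites were within 10 Mb of the last entry and 35 within 20 Mb. These counts in bases are over all 143 sites. Those at the far side include the sites that are themselves the last entry, so they cannot be compared with those from the start.

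**Figure D2:**
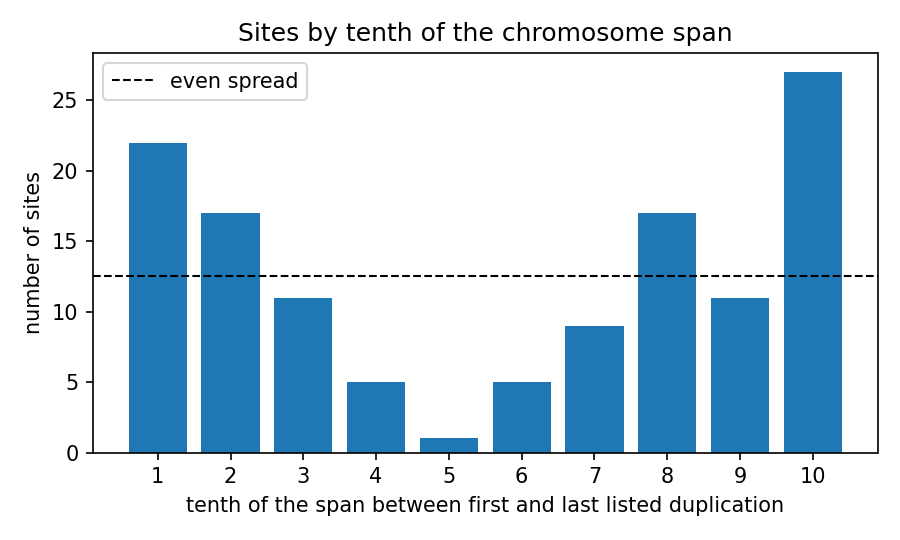
Bars give the number of sites in each of 10 equal intervals of the span, over 10 chromosomes and 125 sites, and the dashed line is the 12.5 sites of an even spread. The last (27 sites) and the first (22 sites) are the highest bars, and the fifth (1 site) is the lowest.

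The entries dropped for a twin are the only ones the sites can be set against. Each run of linked entries was counted once, by its first entry. Runs on contigs, and the run on chromosome 8 whose first entry set an end of the span, were left out. Of the other 19 runs, 12 were outer (63.2%, Clopper-Pearson 95% interval 38.4% to 83.7%). These include a run on chromosome 10 whose second entry set the end there. The run left out on chromosome 8 was the 1 run that began within 10 Mb of a chromosome start. The difference in outer share did not pass the test (76.8% of sites without a twin and 63.2% of runs with one, Fisher's exact test, two-sided, p = 0.254).

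The number of sites per chromosome ran from 12, on chromosomes 2, 6, 7 and 10, to 23 on chromosome 1. Over the span of the list this was 0.534 sites per 10 Mb on chromosome 2, the lowest density, and 0.920 on chromosome 9, the highest. Most entries were dropped on chromosome 8, where 15 of 27 remained, and on chromosome 2, where 12 of 23 did. Chromosomes 4 and 9 lost none of their 15 and 14 entries.

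Gaps between neighbouring sites were narrower when centred in the outer parts than when centred in the middle. The 133 gaps between neighbours had a median of 5.79 Mb and a mean of 15.1 Mb, and ran from 53 bp to 143 Mb. The coefficient of variation of the gaps, which is near 1 for sites scattered at random over a span, was above 1 on each of the 10 chromosomes, between 1.09 on chromosome 8 and 2.05 on chromosome 2. Gaps centred in the outer parts had a median of 4.0 Mb (102 gaps) and those centred in the middle 21.7 Mb (31 gaps). A very wide gap can only be centred in the middle, so this contrast is partly built in. The gap of 143 Mb on chromosome 2, for example, ran from 0.00381 to 0.640 of the span. A neighbour within 1 Mb was found for 46 sites (32.2%), and one within 100 kb for 11 (7.69%). The rule dropped near-identical pairs that lay 1143 to 10838 bp apart, and kept only the first of entries within 20 bp of each other. Gaps of up to 20 bp are therefore absent here, and gaps in the range of the dropped pairs are fewer than in the list as deposited.

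**Figure D3:**
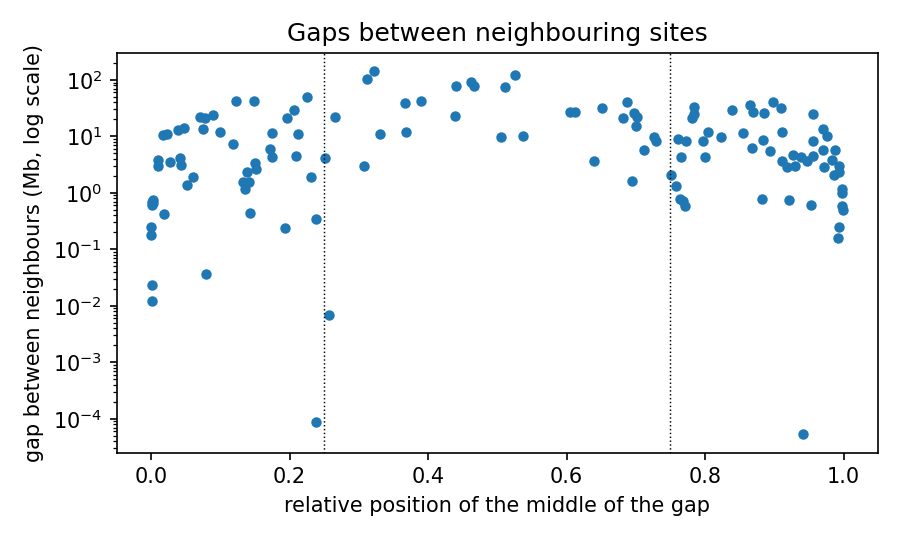
Each point is a gap between neighbouring sites in Mb on a log scale, against the relative position of its middle. Gaps up to 1 Mb (27 of 133) lie mostly in the outer parts, left and right of the dotted lines. The widest, 143 Mb on chromosome 2, has its centre in the middle part.

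The widest gaps cover large parts of their chromosomes. On chromosome 2 no site lay between cgctgcctg, which starts at position 6639815, and cgtccaaac, which starts at 149626005. This interval held 6 entries of the deposited list, all of them dropped for a twin. On chromosome 3 a gap of 121 Mb followed the site gcgtgtagg at 59836468 and ended at tacggggag at 180571956, and it held 2 dropped entries. On chromosomes 4 and 9, gaps of 93.5 and 76.7 Mb held no entry of the list at all. In all, 7 gaps were over 50 Mb.

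The closest neighbours are given whole, as listed, to let their sequences be compared. Pairs more than 20 and up to 20000 bp apart that differed at 0 or 1 base had been dropped, so those left within these distances had to be less alike.
chr9:145958151-145958159: gcttgggag
chr9:145958204-145958212: gaaactgac
chr10:38446626-38446634: catggcagg
chr10:38446715-38446723: acgccgagg
chr8:48995369-48995377: ttctccacc
chr8:49002249-49002257: tgcagtaca
chr3:822112-822120: gtccagtcc
chr3:834404-834412: aacaacaag
chr3:858009-858017: acgacagac
The pair on chromosome 9 is 53 bp apart and that on chromosome 10 is 89 bp apart, and each differs at 6 of the 9 bases. The pair on chromosome 8 is 6880 bp apart and differs at 5 bases. The sites on chromosome 3 are 12292 and 23605 bp apart and belong to the only window of 1000000 bp that held 4 sites, which began with cataactac at 570984 and extended over 287 kb.

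A few pairs lay just outside the limits of the rule. The farthest pair that was dropped was 10838 bp apart, and the next distance between entries with the same sequence was 35926 bp, from the kept site tgcagtaca on chromosome 8 at 49002249 back to the nearer entry of a dropped pair (the other lies 38813 bp before it). The sites cccaccttg on chromosome 5 at 18228914 and 18265740, 36826 bp apart, were both kept. Among the 4 pairs of kept sites between 20 and 20000 bp apart, the most alike differed at 5 bases. At the lower limit, aggtggggg on chromosome 7 at 146494227 was kept in place of an entry 16 bp farther on, and the closest pair kept whole was 53 bp apart.

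The 10 entries left out as too close show how the list gives a place more than once. In 9 of these pairs the duplications overlap, and in all 9 the letters they share are the same on the listed strand. Entries at the same positions and listed on the same strand share their letters in any case. In 5 of these pairs the second entry is the first moved by 1 bp. The shared letters are in capitals in 3 examples.
chr1:198668031-198668039: tCCCTCGAC
chr1:198668032-198668040: CCCTCGACc
chr2:149626005-149626013: cgTCCAAAC
chr2:149626007-149626015: TCCAAACtg
chr7:136115147-136115155: cagggaGAT
chr7:136115153-136115161: GATggtggc
The first 2 lines differ by a shift of 1 bp, the next by 2 bp and the last by 6 bp. Whether such entries are insertions of their own or repeated calls of an insertion was not tested.

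The bases of the sites were 60.5% G or C (778 of 1287), but this share went up and down along the site. Counted over both strands, G or C made up 75.2% at position 1, 46.2% at position 2, 61.5% at position 3, 55.6% at position 4 and 67.1% at the central position 5. The value at position 1 pools unequal ends of the listed strand, 66.4% at position 1 and 83.9% at position 9. On the listed strand, T was found at position 2 in 52 of 143 sites (36.4%, Clopper-Pearson 95% interval 28.5% to 44.8%), and A at position 8 in 51 (35.7%, 27.8% to 44.1%). At the outer ends, C was found at position 1 in 50 sites (35.0%, 27.2% to 43.4%) and G at position 9 in 67 (46.9%, 38.5% to 55.4%). A and T were least frequent at position 9, in 10 sites (6.99%, 3.40% to 12.5%) and 13 sites (9.09%, 4.93% to 15.04%).

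**Figure D4:**
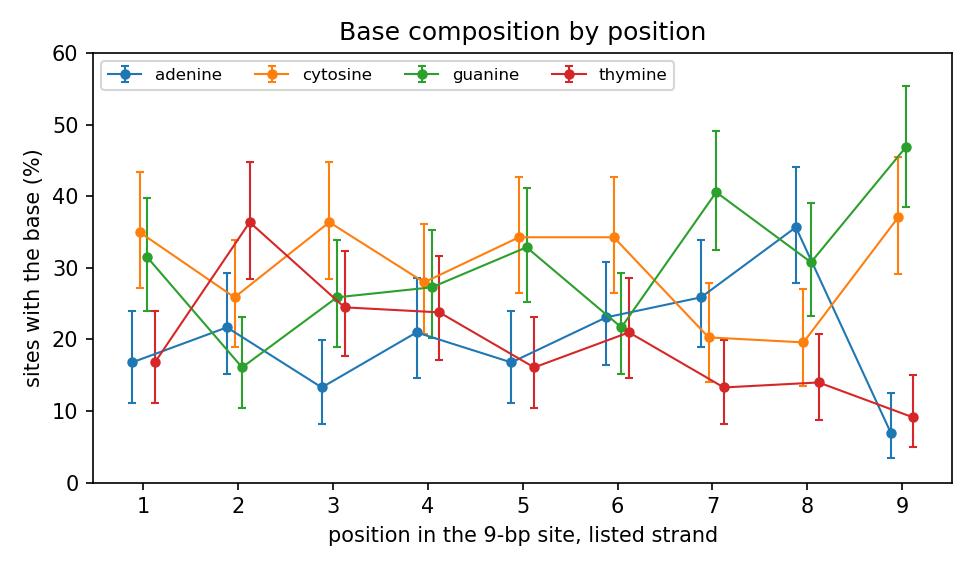
Points give the percentage of the 143 sites with each base at each position of the listed strand, and bars are Clopper-Pearson 95% intervals. Thymine stands out at position 2 (36.4%), adenine at position 8 (35.7%) and guanine at position 9 (46.9%).

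Positions were compared within sites, so that the composition of each site was held. For each base, the number at a position over both strands (0, 1 or 2 per site) was set against the number at another, for the 6 pairs of positions 1 to 4. Of the 24 comparisons, 15 passed an exact sign test with Benjamini-Hochberg adjustment (62.5% of those tested), of which 5 were of T, 4 of C, 4 of G and 2 of A. The comparisons are not independent, because a higher share of a base at a position leaves less for the other bases there. T differed most in these counts over both strands. It made up 11.9% of bases at position 1 and 36.0% at position 2, with 13 sites holding more T at position 1 and 78 more at position 2 (exact sign test, adjusted p = 4.43e-11). The share at position 1 pools 16.8% T at position 1 of the listed strand with 6.99% A at position 9. T was also more frequent at position 2 than at position 3 (25.2%, exact sign test, adjusted p = 0.00316) and position 4 (23.4%, adjusted p = 0.0018). Between positions 3 and 4, 40 sites held more T at each, and this was the only comparison of T that did not pass.

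G went the opposite way to T. It made up 34.3% at position 1 and 17.8% at position 2, with 56 sites higher at position 1 and 17 at position 2 (exact sign test, adjusted p = 6.32e-05), and 30.8% at position 4 (adjusted p = 0.00316 against position 2). C was high at positions 1 (40.9%) and 3 (38.5%) and lower at positions 2 (28.3%) and 4 (24.8%). The difference was clearest between positions 3 and 4, where 60 sites held more C at position 3 and 26 at position 4 (exact sign test, adjusted p = 0.0018). Between positions 1 and 2 it was closer to the threshold (exact sign test, adjusted p = 0.0232), and with each sequence counted once, or without chromosome 1, 6 or 8, it did not pass. A varied least, from 12.9% at position 1 to 21.0% at position 4 (exact sign test, adjusted p = 0.0472), and a base count over both strands at position 1 did not pass the test against position 3 for A or for C (adjusted p = 0.931 and 0.559).

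No difference between the listed strand and its complement passed the test for single bases. Each base at positions 1 to 4 of the listed strand was set against its complement at the mirrored position in the same sites, and 0 of 16 comparisons passed (0% of those tested, exact sign test over sites, two-sided, Benjamini-Hochberg adjusted), while 2 had an unadjusted p under 0.05. Both of these were at positions 1 and 9. T was at position 1 in 24 sites and A at position 9 in 10 (exact sign test, p = 0.0125, adjusted p = 0.201). C was at position 1 in 50 sites and G at position 9 in 67 (exact sign test, p = 0.0464, adjusted p = 0.371). T at position 2 and A at position 8 were nearly equal in number (52 and 51 sites, of which 44 held only the T and 43 only the A). C at position 3 was found in 52 sites and G at position 7 in 58.

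Within single sites, T at position 2 and A at position 8 occurred together less often than their shares would give. Of the 52 sites with T at position 2, 8 had A at position 8 (15.4%, Clopper-Pearson 95% interval 6.88% to 28.1%), whereas of the 91 sites with another base at position 2, 43 had A at position 8 (47.3%, 36.7% to 58.0%). The product of both shares would give 18.5 sites with both, against the 8 found (Fisher's exact test, two-sided, adjusted p = 0.00194 over 16 tests). This was the only one of the 16 combinations of a base and its complement that passed (6.25% of those tested). In all, 87 sites (60.8%) had T at position 2 or A at position 8 but not both, 8 had both and 48 (33.6%) had neither. With T at position 2, the base at position 8 was C in 17 sites, G in 17, T in 10 and A in 8.

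**Figure D5:**
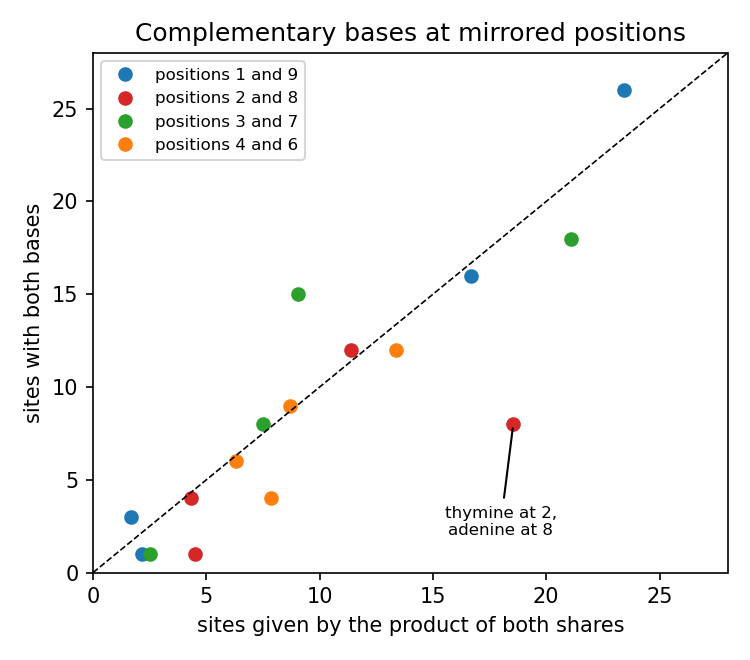
Each point is a base at positions 1 to 4 together with its complement at the mirrored position, with the number of sites that hold both against the number given by the product of both shares, and the dashed line marks equality. Thymine at 2 with adenine at 8 lies farthest below the line, at 8 sites against 18.5.

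The other mirrored combinations did not pass the test. C at position 1 and G at position 9 were found together in 26 sites, where the product gives 23.4 (adjusted p = 0.88, Fisher's exact test). T at position 3 with A at position 7 went in the other direction, in 15 sites where the product gives 9.06, but did not pass the adjustment (Fisher's exact test, p = 0.0136, adjusted p = 0.109). G at position 2 with C at position 8 was found in 1 site where the product gives 4.50 (Fisher's exact test, p = 0.047, adjusted p = 0.25). G or C at both ends of a site was found in 79 sites, where the product of the shares gives 79.7, and at neither end in 7, where it gives 7.72.

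No site was symmetric over all its positions. A site has 4 mirrored pairs of positions, and 44 sites had no complementary pair, 62 had 1, 29 had 2, 8 had 3 and 0 had all 4. The product of the shares would give 38.8, 59.9, 34.6, 8.86 and 0.847 sites. By position, the bases were complementary in 46 sites at positions 1 and 9 (product 44.0), 25 at positions 2 and 8 (product 38.8), 42 at positions 3 and 7 (product 40.2) and 31 at positions 4 and 6 (product 36.2), so the shortfall was mainly at positions 2 and 8. The 8 most symmetric sites, named after their values were seen, are shown with their complementary pairs in capitals.
chr1:72909321-72909329: GTTtagAAC
chr5:194921079-194921087: TCGtccCGA
chr6:171023328-171023336: CTTgtgAAG
chr8:49002249-49002257: TGcAgTaCA
chr8:97202190-97202198: GAgTgAgTC
chr9:113853775-113853783: CaCCgGGaG
chr10:38446626-38446634: CaTGgCAgG
chr10:132244012-132244020: CaGCtGCgG
Only the sites on chromosomes 1 and 6 hold T at position 2 with A at position 8, and in the last 3 it is this pair of positions that is not complementary.

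To see what accompanies the T, the 87 sites with only one of the 2 bases were read on the strand that puts T at position 2, a reading chosen after the values were seen and given with no test. Position 3 was then C in 42 sites (48.3%, Clopper-Pearson 95% interval 37.4% to 59.2%) and position 1 was C in 37 (42.5%, 32.0% to 53.6%) and G in 31 (35.6%, 25.6% to 46.6%). A was rare at position 4, in 6 sites (6.90%, 2.57% to 14.4%), where G was found in 33 and T in 25. T was the most frequent base at position 6, in 31 sites (35.6%, 25.6% to 46.6%). Position 8 held C in 29 sites, G in 30 and T in 28, and by the choice of these sites it could not hold A. For comparison, over both strands of all 143 sites C made up 38.5% at position 3 and 40.9% at position 1. G made up 34.3% at position 1 and A 21.0% at position 4. The shares of C and G at position 1 were thus nearly the same in the 87 sites as in all.

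T at position 2 or A at position 8 was found in 95 of the 143 sites (66.4%), against 15 of the 22 runs dropped for a twin (68.2%). Both bases were present in 8 of the 143 sites and in 1 of the 22 runs. Along the chromosomes, 61 of 96 outer sites (63.5%) and 22 of 29 middle sites (75.9%) held at least one of the bases. By chromosome the share ran from 4 of 12 sites on chromosome 10 to 19 of 23 on chromosome 1.

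The G or C content of single sites ranged from 1 to 9 of 9 bases, with a mean of 5.44 ± 1.499 (SD, n = 143 sites). The richest site was ggcggcggg on chromosome 10 from 4263201 to 4263209, and the poorest was aaatagaaa on chromosome 5 from 162540620 to 162540628. A content of 6 or more was found in 73 sites (51.0%, Clopper-Pearson 95% interval 42.6% to 59.5%) and in 8 of 22 runs with a twin (36.4%, 17.2% to 59.3%), a difference that did not pass the test (Fisher's exact test, two-sided, p = 0.254). The difference between outer and middle sites did not pass either, with 49 of 96 (51.0%) and 16 of 29 (55.2%, Fisher's exact test, p = 0.832), and their mean contents were 5.43 ± 1.48 and 5.41 ± 1.66 (SD).

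The dinucleotide CG, the main target of DNA methylation in plants, was present in 58 sites (40.6%), in 9 of 22 runs with a twin (40.9%) and in 80 of all 197 entries (40.6%). Over the 8 steps of the 143 sites it was found 70 times, where the product of the base shares at each step gives 97.5.

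The rule had removed sequences that recurred nearby, so the count of recurring sequences is a description of what was left. The 143 sites held 140 different sequences when both strands are counted as the same, and 3 sequences were found at 2 sites each. Beside the pair on chromosome 5 given above, these are a sequence on chromosomes 6 and 8 and another on chromosomes 2 and 8, each listed on opposite strands. The letters of the repeat CTCTC, or GAGAG on the other strand, are in capitals.
chr6:99058413-99058421: ccGAGAGAG
chr8:124608977-124608985: CTCTCTCgg
chr2:179826432-179826440: CTCTCtacc
chr8:157432721-157432729: ggtaGAGAG
Copies of CTCTC that overlap were counted once per site, and this motif, chosen after these sequences were seen, was present on either strand in 5 of 143 sites (3.50%), 3 of 22 runs with a twin (13.6%) and 12 of all 197 entries (6.09%). Of the 5 sites, 4 are those printed here, and the other is cggagagat on chromosome 1 at 3294639. A further site, ttaggtcgg on chromosome 2 at 224755023, shares its sequence with a dropped pair on chromosome 1.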

How the data were processed

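The authors enriched DNA next to *Mu* elements by PCR, had the amplicons sequenced by a MiSeq-based WideSeq service, aligned reads to the B73 reference (B73 RefGen_v4 per the labels) and called insertions by their target site duplications. The deposited list gives the chromosome, the first and last position and the 9-bp sequence of 197 duplications, pooled over 8 libraries. The aligner, read filters and read minimum are not given in the sources used here. The depth behind a site is therefore unknown, and intervals cover only the number of sites. The deposited allele counts and insertion calls were not used, as they carry no site position.

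The rule, lists and tests were chosen with earlier results of these data known. Clopper-Pearson intervals (95%), Fisher's exact tests, exact sign tests and Benjamini-Hochberg adjustment (threshold 0.05) came from scipy 1.17.1 and numpy 2.4.6 under Python 3.11.15, and figures from matplotlib 3.10.9. Runs of linked twin entries were counted once. Sites were named for shared sequences, symmetry, the bases at positions 1, 2, 8 and 9, closest and widest spacing, extreme G or C content, the densest window and the limits of the rule. Alternatives covered the limits of the rule, the width of the outer parts, the entry kept and chromosomes left out. No gene annotation, genome sequence or chromosome length of the assembly was used.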

Additional observations from a re-analysis of the deposited data

How the results depend on the processing

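No paired analysis was possible because the list is pooled over the seedlings and gives no replicate values. The number of sites ran from 140 with twins up to 50000 bp apart to 153 when only identical twins were dropped. The outer share was 61.6% for narrower outer parts, in which an even spread puts 40%, and 88.8% for wider ones, in which it puts 66.7%, and ran from 75% to 79.8% without each chromosome in turn. Between 10 and 15 of the 24 comparisons of positions passed without a chromosome. The difference of C between positions 1 and 2 did not pass with each sequence counted once (adjusted p = 0.0508, exact sign test), nor without chromosome 1, 6 or 8 (adjusted p = 0.0764, 0.0877 and 0.0528). With the last of the entries within 20 bp kept, 12 of the 24 passed. T at position 2 against positions 3 and 4 was then closer to the threshold (exact sign test, adjusted p = 0.0255 and 0.0215). Of the mirrored combinations, 1 or 2 of 16 passed without a chromosome (2 without chromosome 3), T at 2 with A at 8 each time. With the last entry kept, T at 2 with A at 8 differed from the product by -8.43 sites (Fisher's exact test, adjusted p = 0.0248), against -10.5 with the first kept. In the 22 runs with a twin 0 passed, and that pair differed from the product by -1.73 sites (Fisher's exact test, adjusted p = 0.936). Only 10 of these runs held T at 2 and 6 held A at 8. These are too few for the test to decide whether the runs differ from the sites in this pair. The share of sites with 6 or more G or C exceeded that of the runs by 14.7 percentage points, but with 7 or more it was lower (-6.64 points, p = 0.602 by Fisher's exact test). With 5 or more it was higher by 18.9 points (Fisher's exact test, p = 0.0808). The cause of these changes was not tested. Leaving out chromosomes for the bases by position and the mirrored positions, and for the mirrored positions also twins up to 50000 bp and the runs alone, were alternatives added after seeing the data.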

Other observations

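The ends of the listed sequences were uneven in G or C, although no comparison of single bases passed after adjustment. This was noticed after the data were seen and is given with no test. G or C stood at position 9 in 120 of 143 sites (83.9%, Clopper-Pearson 95% interval 76.9% to 89.5%) and at position 1 in 95 (66.4%, 58.1% to 74.1%). In 41 sites only position 9 held G or C and in 16 only position 1. Keeping the last of the entries within 20 bp in place of the first gave 121 and 96 sites. The number was higher at position 9 on 8 of the 10 chromosomes, chromosomes 6 and 7 being the exceptions. Among outer sites it was 85 of 96 at position 9 and 58 at position 1, and among middle sites 21 of 29 and 22. In the 22 runs with a twin it was 17 at each position. The strand on which the authors listed each sequence is not given in the sources used here.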
